A study of Mus musculus with 15 samples.

Results

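The 7 genes described here, H2-Aa, H2-Ab1, H2-Eb1, H2-DMa, H2-DMb1, Cd74 and Ciita, carry out and control antigen presentation on class II molecules of the major histocompatibility complex (MHC), and were chosen as a named list of 36528 gene entries counted. RNA was measured in tumour nests of basal cell carcinoma cut by laser from frozen skin. The mice carried Ptch1fl/fl, p53fl/fl, Lgr5GFP and K14Cre-ER, in which the keratin 14 promoter drives Cre in epithelium, so that other cells caught in a nest keep intact Ptch1 and p53. Each of 3 groups has 5 libraries: nests from mice given vismodegib, which blocks the Hedgehog transducer Smoothened, for 28 days, untreated nests labelled ki67-, and untreated nests labelled ki67+. All groups carry the same alleles, the vismodegib nests carry no Ki67 label, and the labels give no ages.

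Class II molecules are pairs of an alpha and a beta chain that carry peptides from endosomes to the cell surface, where CD4+ T cells read them. The invariant chain, encoded by Cd74, fills the groove of a new pair until H2-DM, a peptide editor, helps exchange its remnant for an antigenic peptide. Ciita is the coactivator that switches these genes on together. In skin, Langerhans cells and other dendritic cells, macrophages and B cells express class II constantly, and keratinocytes can be brought to express it by interferon gamma.

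Ciita binds no DNA itself: it is recruited by factors on the X1, X2 and Y elements of class II promoters, which RFX, CREB family factors and NF-Y bind. Because all 7 members were called higher after vismodegib, stretches of their promoters are shown, from the RefSeq promoter table of GRCm38.p6, which runs from 250 bases before to 50 bases after a start and held 4 of the 7 members. Capitals mark matches to ACNGATG (within X1), TGACGTCA (X2) and TGATTGG (Y), searched on both strands, and each stretch is written on the strand of its gene, from 12 bases before the X match nearest to Y to 12 bases after Y.
H2-Aa: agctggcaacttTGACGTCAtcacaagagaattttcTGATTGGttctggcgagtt
H2-Eb1: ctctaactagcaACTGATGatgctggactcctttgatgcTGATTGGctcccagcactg
H2-Eb2: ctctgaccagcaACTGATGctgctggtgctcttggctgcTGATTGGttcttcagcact
H2-DMb1: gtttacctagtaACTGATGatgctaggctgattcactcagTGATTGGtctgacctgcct
H2-DMb2: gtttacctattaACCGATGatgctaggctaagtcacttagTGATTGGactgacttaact

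The stretch of H2-Aa lies at chr17:34287855-34287909 on the minus strand and holds 16 bases between X2 and Y. That of H2-Eb1, at chr17:34305767-34305824 on the plus strand, holds 20 bases between X1 and Y, and that of H2-DMb1, at chr17:34153088-34153146 on the plus strand, holds 21. H2-Eb2 (chr17:34325534-34325591, plus strand) and H2-DMb2 (chr17:34145117-34145175, plus strand) are no members and are shown as neighbours with the same spacing as H2-Eb1 and H2-DMb1 but few reads. The spacing is not shared by all class II genes of the region. H2-Oa, not shown, held X1 and Y with 85 bases between them, and H2-Ob held a Y match only. H2-Eb2 had 23 counts over the 5 vismodegib libraries, 0 over the Ki67-negative and 1 over the Ki67-positive libraries. The promoter of H2-Aa also held an X1 match on the opposite strand, 232 bases before the start, and neither of the 2 promoters listed for H2-DMa held a match. No matches overlapped. Of 32851 promoters, 9.85% held X1, 1.79% X2, 7.82% Y, and 0.846% Y together with X1 or X2. The letters were chosen with these sequences in view, and a match describes letters only.

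Depth ran from 4887381 to 10328822 counts per library. Ptch1 and Gli1, both Hedgehog targets, were lower in every vismodegib library (142 to 923 and 21.0 to 126 CPM, counts scaled to the library total) than in any untreated one (2053 to 3758 and 223 to 585 CPM). The floxed Ptch1 alleles are shared by all groups, so its level checks no genotype. Mki67, which encodes Ki67, was lower in Ki67-negative than in Ki67-positive libraries (234 to 408 against 587 to 1147 CPM, log2 fold change -1.10, edgeR adjusted p = 0.0291), and reached 489 to 847 CPM in vismodegib libraries. Keratinocyte genes summed to 14190.0 to 16653 CPM after vismodegib, 4953 to 8625 CPM in Ki67-negative and 6666 to 8421 CPM in Ki67-positive libraries, so epithelial RNA was present throughout. Libraries 1, 2 and 3 of the vismodegib group and library 5 of each untreated group had more Xist than Ddx3y, a gene of the Y chromosome. Vismodegib library 4 stood apart in genes of the H2 complex and in some genes outside it, as described below. Member fold changes, levels and likeness are given with and without vismodegib library 4. Over all genes tested, Ki67-negative library 5 stood furthest apart. There 12.4% lay more than 1 log2 unit outside the range of its group, against 3.0% in vismodegib library 4 and at most 4.03% in any other library. It also had the fewest gene entries with a count, 19669.

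All 7 members were higher in vismodegib nests than in untreated nests of either kind, and none was called between the untreated groups. The summed level of the 7 was 1977, 1336, 2073, 695 and 2386 CPM in vismodegib libraries 1 to 5. It was 146 to 479 CPM (median 371) in Ki67-negative and 115 to 489 CPM (median 227) in Ki67-positive libraries, with no overlap with the vismodegib libraries. As a share of all counts, the members took 0.0664% to 0.234% after vismodegib, 0.0148% to 0.0488% in Ki67-negative and 0.0119% to 0.0491% in Ki67-positive libraries. In such captured tissue, more cells that express a gene and more RNA per cell cannot be told apart.

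**Figure D1:**
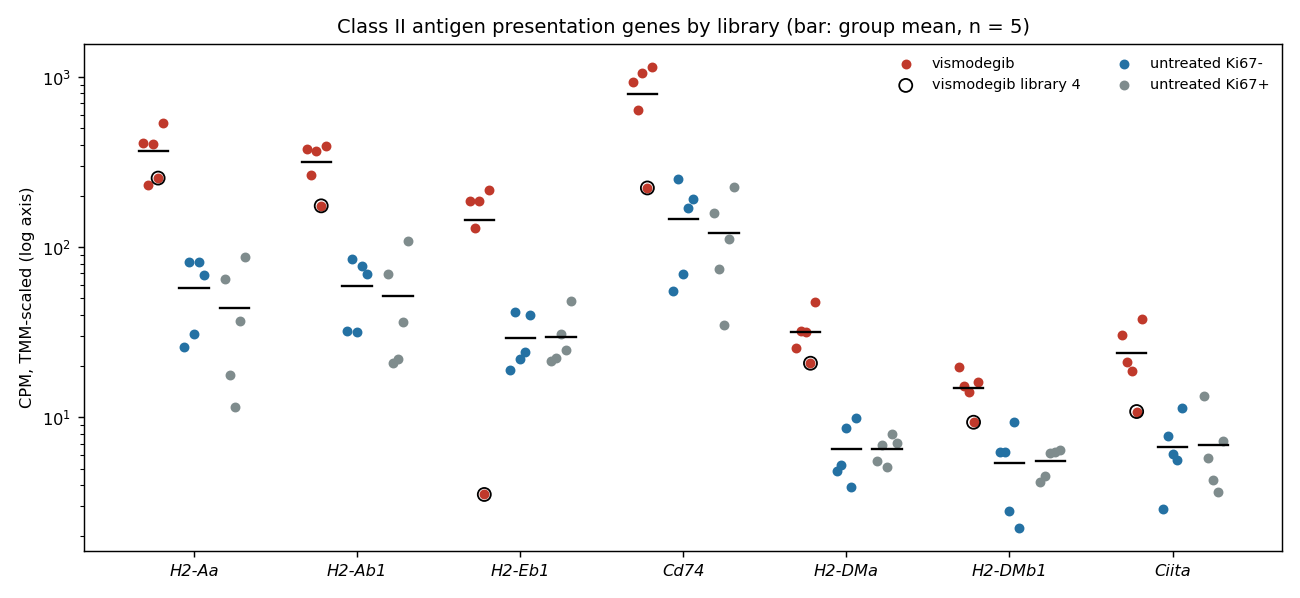
CPM of each class II gene in each library on a log axis, with vismodegib, untreated Ki67-negative and untreated Ki67-positive libraries side by side; bars are group means of 5 libraries and the open circle marks vismodegib library 4. For H2-Aa the vismodegib libraries sit between 232 and 538 CPM, above all untreated libraries, while H2-Eb1 of library 4 sits at 3.52 CPM, below all others.

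Against Ki67-positive nests, 7 of 7 members were called higher (edgeR quasi-likelihood test, adjusted p under 0.05), where 26.0% of the 17282 genes tested were called in either direction and 12.6% higher. Their median log2 fold change was 2.29, beside -0.022 over all genes tested. Against Ki67-negative nests, again 7 of 7 were called higher, where 31.9% of all genes were called and 15.4% higher, with a median of 2.29 beside -0.033. The vismodegib libraries are shared by both comparisons, and the members were chosen with earlier results of these data known, so these counts are no independent test. In the 10 libraries in which Ddx3y exceeded Xist, 2 of them from vismodegib nests, 5 members were called higher over Ki67-positive nests, where 7.54% of all genes were, and 4 over Ki67-negative nests, where 8.37% were. The labels tie no library to an animal, so nests of a group may share animals and the p-values may be too small. The sample numbers of the Ki67-negative libraries form a separate, later block, while those of vismodegib and Ki67-positive libraries are interleaved. The labels do not say whether the Ki67-negative libraries were prepared apart. In every comparison with Ki67-negative nests, such a difference and the group cannot be told apart.

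Of the 7 members H2-Aa gave the widest difference. This gene, at chr17:34282744-34287823, encodes the alpha chain of the I-A molecule, and its promoter stretch with X2 and Y is shown above. It had 410, 232, 404, 254 and 538 CPM in vismodegib libraries 1 to 5, against 25.8, 81.7, 30.7, 81.4 and 68.5 CPM in Ki67-negative libraries and 64.5, 17.8, 11.5, 36.8 and 87.2 CPM in Ki67-positive libraries. Every vismodegib library was above every untreated one. The log2 fold change was 3.09 (SE 0.531, edgeR adjusted p = 0.000603) over Ki67-positive nests, an 8.49-fold difference, and 2.67 (SE 0.521, adjusted p = 0.00141) over Ki67-negative nests. Without library 4 it was 3.2 over Ki67-positive (adjusted p = 0.000946) and 2.78 over Ki67-negative nests (adjusted p = 0.00208).

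H2-Ab1, at chr17:34263227-34269418, encodes the beta chain that pairs with H2-Aa. Its levels were 376, 266, 369, 175 and 390 CPM after vismodegib, 32.1, 85.4, 31.9, 77.8 and 69.9 CPM in Ki67-negative libraries, and 69.9, 20.7, 22, 36.2 and 109 CPM in Ki67-positive libraries. Here too no untreated library reached the lowest vismodegib one, library 4. The log2 fold change was 2.62 (SE 0.466, edgeR adjusted p = 0.000709) over Ki67-positive and 2.40 (SE 0.462, adjusted p = 0.00116) over Ki67-negative nests. With library 4 left out the values were 2.78 over Ki67-positive (adjusted p = 0.00068) and 2.56 over Ki67-negative nests (adjusted p = 0.00107). The pair moved together from library to library: within groups, the log2 CPM of H2-Aa and H2-Ab1 had r = 0.95 over 15 libraries (0.96 without library 4), which share tissue, depth and scaling.

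H2-Eb1, at chr17:34305867-34316674, encodes the beta chain of the I-E molecule and behaved otherwise in 1 library. It had 186, 129, 186, 3.52 and 217 CPM in vismodegib libraries 1 to 5, against 19, 41.8, 22, 24.3 and 39.8 CPM in Ki67-negative libraries and 21.3, 22.2, 30.9, 24.9 and 48.3 CPM in Ki67-positive libraries. Of the vismodegib libraries 4 lay above all untreated ones, and library 4, with 29 counts, lay below all of them. The log2 fold change was 2.29 (SE 0.657, edgeR adjusted p = 0.0188) over Ki67-positive and 2.29 (SE 0.657, adjusted p = 0.0163) over Ki67-negative nests. Without library 4 it was 2.62 over Ki67-positive (adjusted p = 3.97e-06) and 2.61 over Ki67-negative nests (adjusted p = 3.5e-06). By limma voom on all libraries it was 1.52 over Ki67-positive (adjusted p = 0.326) and 1.49 over Ki67-negative nests (adjusted p = 0.323).

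Cd74, at chr18:60803849-60812652, encodes the invariant chain. It reached 928, 640, 1049, 222 and 1140.4 CPM after vismodegib, against 55.3, 251, 69.1, 169 and 191 CPM in Ki67-negative libraries and 159, 74.1, 34.8, 111 and 224 CPM in Ki67-positive libraries. Library 4 was again the lowest of its group and fell within the range of the untreated libraries, and the other vismodegib libraries were above all of them. The log2 fold change was 2.72 (SE 0.575, edgeR adjusted p = 0.00294) over Ki67-positive and 2.44 (SE 0.568, adjusted p = 0.00504) over Ki67-negative nests. Without library 4 these were 2.97 over Ki67-positive (adjusted p = 0.00108) and 2.67 over Ki67-negative nests (adjusted p = 0.00194). The microRNA gene Mir5107 lies inside the span of Cd74 and showed the same order of group means (42.5 CPM on average after vismodegib, 7.25 CPM in Ki67-negative and 6.28 CPM in Ki67-positive nests). No source used here states whether counting used strand, so reads of the overlapping genes cannot be told apart.

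Both chains of the peptide editor H2-DM rose as well. H2-DMa, at chr17:34119693-34139101, encodes the alpha chain of H2-DM. It had 25.4, 31.9, 31.9, 20.8 and 47.5 CPM after vismodegib, against 4.84, 5.24, 8.68, 3.93 and 9.87 CPM in Ki67-negative libraries and 5.53, 6.91, 5.11, 8.0 and 7.08 CPM in Ki67-positive libraries. The groups did not overlap, and in the fit of all libraries H2-DMa had the smallest adjusted p of the members, with a log2 fold change of 2.27 (SE 0.286, edgeR adjusted p = 1.6e-05) over Ki67-positive and 2.28 (SE 0.287, adjusted p = 1.35e-05) over Ki67-negative nests. Leaving out library 4 gave 2.39 over Ki67-positive (adjusted p = 1.43e-05) and 2.39 over Ki67-negative nests (adjusted p = 1.32e-05). Its annotated span overlaps that of Brd2, a chromatin reader gene at 232 ± 13 CPM with the drug, against 238 ± 16.2 CPM in Ki67-positive libraries (SD, n = 5 each, log2 fold change -0.04, edgeR adjusted p = 0.842).

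H2-DMb1, at chr17:34153191-34160229, encodes a beta chain of H2-DM and gave the smallest difference. Its levels were 19.7, 15.2, 14.2, 9.36 and 16.1 CPM after vismodegib, 6.29, 6.23, 2.83, 9.36 and 2.24 CPM in Ki67-negative libraries, and 4.15, 4.50, 6.18, 6.28 and 6.47 CPM in Ki67-positive libraries. All vismodegib libraries were above the Ki67-positive ones, and vismodegib library 4 and Ki67-negative library 4 met. The log2 fold change was 1.43 (SE 0.344, edgeR adjusted p = 0.00469) over Ki67-positive and 1.46 (SE 0.345, adjusted p = 0.00367) over Ki67-negative nests, and without library 4 it was 1.56 over Ki67-positive (adjusted p = 0.00337) and 1.59 over Ki67-negative nests (adjusted p = 0.00273). H2-DMb1 and its neighbour H2-DMb2 are close copies, and counting of uniquely aligned reads can lose or split their reads, so the values of both are uncertain.

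Ciita, the coactivator, at chr16:10480014-10531064, is the only member away from the H2 complex other than Cd74. It had 30.4, 21.2, 18.8, 10.8 and 37.7 CPM in vismodegib libraries 1 to 5, against 2.90, 7.79, 6.06, 5.59 and 11.4 CPM in Ki67-negative libraries and 13.4, 5.79, 4.28, 3.66 and 7.28 CPM in Ki67-positive libraries. Vismodegib library 4 lay below Ki67-negative library 5 and Ki67-positive library 1, and the other 4 lay above all untreated libraries. The log2 fold change was 1.80 (SE 0.408, edgeR adjusted p = 0.00303) over Ki67-positive and 1.81 (SE 0.408, adjusted p = 0.00258) over Ki67-negative nests. Without library 4 these were 1.99 over Ki67-positive (adjusted p = 0.00138) and 2.0 over Ki67-negative nests (adjusted p = 0.00123). Of the 7 members, 4 had every vismodegib library above every Ki67-positive one (H2-Aa, H2-Ab1, H2-DMa and H2-DMb1), as had 10.2% of all genes tested. Over Ki67-negative libraries this held for 3 (H2-Aa, H2-Ab1 and H2-DMa), and for 10.4% of all genes.

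**Figure D2:**
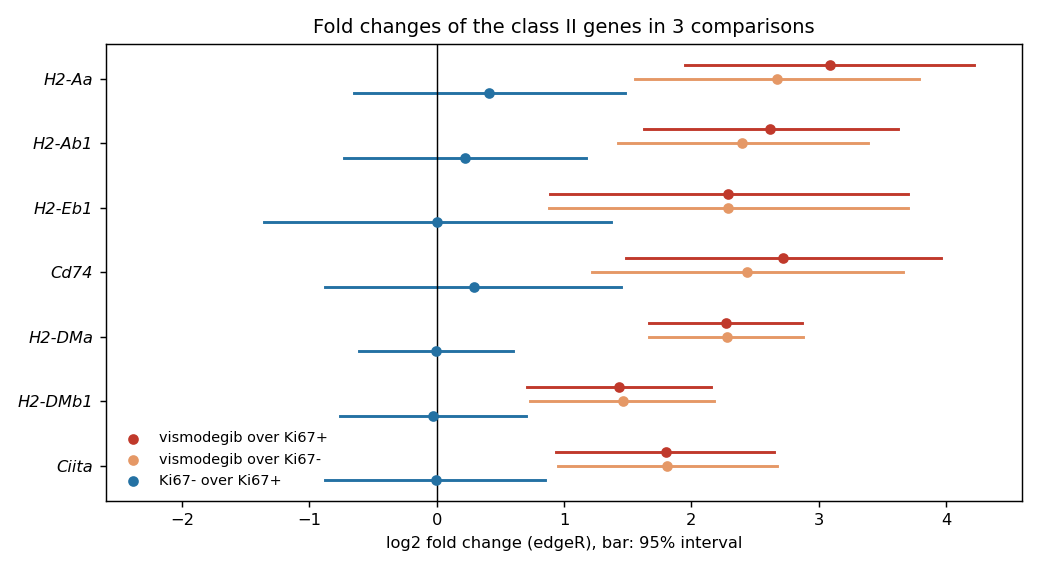
log2 fold change of each class II gene (x axis) in 3 comparisons, with bars for the 95% interval of the edgeR fit on 15 libraries. Both vismodegib comparisons lie to the right of 0 for all 7 genes, between 1.43 and 3.09, and all intervals of Ki67-negative over Ki67-positive include 0.

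Between the untreated groups, 0 of 7 members were called by edgeR, where 0.174% of all genes were called, all of them lower in Ki67-negative nests. No member had every Ki67-negative library above every Ki67-positive one, as had 0.33% of all genes. At an unadjusted p under 0.05 the count was also 0, as it was by DESeq2 and limma voom at an adjusted p under 0.05. H2-Aa averaged 57.6 ± 27.4 CPM in Ki67-negative and 43.6 ± 31.9 CPM in Ki67-positive libraries (SD, n = 5 each), and its log2 fold change of 0.41 had a 95% interval of -0.65 to 1.48. H2-DMa averaged 6.51 ± 2.60 CPM in Ki67-negative and 6.53 ± 1.19 CPM in Ki67-positive libraries (SD, n = 5 each), with an interval of -0.61 to 0.60. The widest interval was that of H2-Eb1, -1.36 to 1.37, with 29.4 ± 10.6 CPM in Ki67-negative and 29.5 ± 11.2 CPM in Ki67-positive libraries (SD, n = 5 each). The spread in the fit is shared by all 3 groups and takes in vismodegib library 4, at 3.52 CPM. The width therefore does not describe the untreated libraries alone, and a difference inside the interval is not excluded. No gene of the pathway and cell type lists described below was called between the untreated groups either. Within each untreated group H2-Aa itself varied more than 3-fold between libraries, and in Ki67-positive nests the highest and lowest libraries were at 87.2 and 11.5 CPM.

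Levels of the genes can be compared per length with the deposited RPKM. Cd74 was the highest member in each group, at 153 ± 71.2 RPKM after vismodegib, 28.9 ± 16.2 in Ki67-negative and 23.6 ± 14.6 in Ki67-positive nests (SD, n = 5 each). H2-Aa and H2-Ab1 followed at 84.4 ± 28.4 and 72.1 ± 20.8 RPKM after vismodegib, 13.4 ± 6.30 and 13.8 ± 5.88 in Ki67-negative, and 10.1 ± 7.48 and 12 ± 8.81 in Ki67-positive nests. H2-Eb1 came next in every group, at 23.6 ± 13.9 RPKM after vismodegib, 4.9 ± 1.77 in Ki67-negative and 4.9 ± 1.88 in Ki67-positive nests. Without vismodegib library 4, at 0.589 RPKM for H2-Eb1, the vismodegib levels were 29.3 ± 6.01 RPKM for H2-Eb1, 181 ± 41.9 for Cd74, 90.6 ± 28.6 for H2-Aa and 80 ± 12.9 for H2-Ab1 (SD, n = 4), and the order of the 7 members was the same.

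H2-DMa at 4.62 ± 1.46 RPKM, H2-DMb1 at 3.17 ± 0.774 RPKM and Ciita at 0.966 ± 0.420 RPKM closed the order after vismodegib. In Ki67-negative nests H2-DMa, H2-DMb1 and Ciita were at 0.979 ± 0.407, 1.16 ± 0.614 and 0.280 ± 0.132 RPKM, and in Ki67-positive nests at 0.970 ± 0.179, 1.19 ± 0.235 and 0.283 ± 0.160 RPKM. The transcript of the coactivator was thus the least abundant member per length in all 3 groups. Judged by mean ± SD, these neighbours in the order overlapped: in every group Cd74 and the gene after it, H2-Aa and H2-Ab1, and H2-DMa and H2-DMb1, and in Ki67-positive nests also H2-Aa and H2-Eb1. Without vismodegib library 4, Cd74 and H2-Aa no longer overlapped in vismodegib nests. Cd74 exceeded H2-Aa in 4 of 5 vismodegib libraries and H2-Ab1 in 5 of 5 libraries of each untreated group. H2-Aa exceeded H2-Ab1 in 4 of 5 vismodegib libraries, while H2-Ab1 exceeded H2-Aa in 4 of 5 libraries of each untreated group.

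H2-Eb1 and Cd74 were low relative to H2-Aa in vismodegib library 4. H2-Eb1 counts per H2-Aa count were 0.454, 0.554, 0.461, 0.0139 and 0.404 in vismodegib libraries 1 to 5, against 0.299 to 0.738 (median 0.581) in Ki67-negative and 0.331 to 2.68 (median 0.677) in Ki67-positive libraries. Cd74 counts per H2-Aa count were 2.26, 2.75, 2.59, 0.875 and 2.12 after vismodegib, 2.07 to 3.07 in Ki67-negative and 2.46 to 4.15 in Ki67-positive libraries. In both ratios library 4 was below all 14 other libraries. H2-Ab1 per H2-Aa count was 0.687 there, beside 0.725 to 1.14 in the other vismodegib libraries, 0.955 to 1.24 in Ki67-negative and 0.984 to 1.91 in Ki67-positive libraries.

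**Figure D3:**
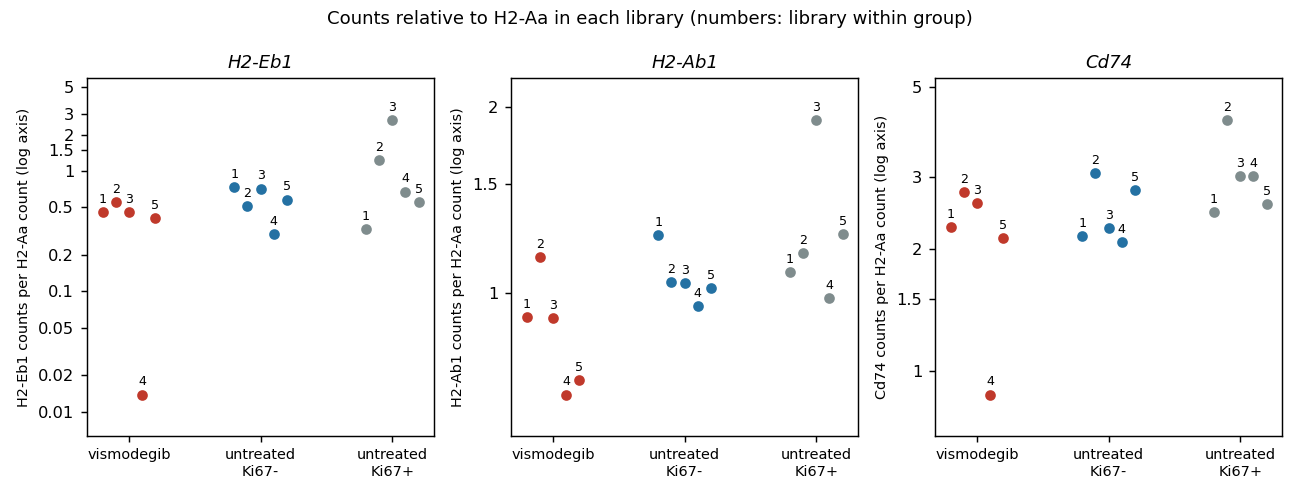
Counts of H2-Eb1, H2-Ab1 and Cd74 divided by the H2-Aa count of the same library, on log axes, with vismodegib, Ki67-negative and Ki67-positive libraries numbered within their group. Vismodegib library 4 is at 0.0139 for H2-Eb1 and 0.875 for Cd74, below the other 14 libraries, and Ki67-positive library 3 is the highest for H2-Ab1 at 1.91.

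Of 17282 genes tested, H2-Eb1 was the furthest below the other vismodegib libraries in library 4, with a gap of 5.08 on the log2 scale to the lowest of them. Of the 24 H2 genes tested, 9 lay more than 1 log2 unit below and 1 above the other vismodegib libraries, together 41.7%, where 3.0% of all genes did. In the other 14 libraries, each set against its own group, 0.0% to 12.5% of H2 genes did. The class I-like genes H2-T23 (3.28 CPM, against 28.0 to 51.3 CPM in the other vismodegib libraries) and H2-T22 (3.65 CPM, against 27.2 to 34.4 CPM) were among those below. The classical class I genes H2-K1 and H2-D1, chosen after their values were seen, were not, at 959 and 799 CPM in library 4, against 709 to 1054 and 373 to 555 CPM in the other vismodegib libraries. Genes outside the H2 complex also lay far below in library 4. Of the 10 genes furthest below, 5 lie on chromosome 17, which holds 4.52% of the genes tested. Nkg7, on chromosome 7, had a gap of 2.56, and the T cell gene Cd3e, on chromosome 9, one of 2.23. Genotype and strain labels do not differ between the libraries, and the part of these differences in the class II values was not tested.

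The class II genes on chromosome 17 lie between 34119693 and 34316674, and the 13 genes of that span in the files allow their neighbours to be read beside them. H2-Ob, a chain of H2-DO, which restrains H2-DM, was low but higher after vismodegib: 20, 16, 20, 19 and 29 counts, against 18 counts over the Ki67-negative and 7 over the Ki67-positive libraries. It rose by 3.61 on the log2 scale over Ki67-positive nests (SE 0.819, edgeR adjusted p = 0.00302) and by 2.20 over Ki67-negative nests (SE 0.730, adjusted p = 0.0286). Of the 4 other class II genes of the region with an entry it was the only 1 that passed the filter on low counts. H2-Ob passed through its vismodegib counts, as every untreated library lay below every vismodegib one. With so few untreated counts it could enter the test only as a gene higher after vismodegib. Its fold changes and adjusted p therefore cannot decide the direction, and the counts are given as a description. H2-DMb2 had 72 counts over the vismodegib, 2 over the Ki67-negative and 11 over the Ki67-positive libraries, H2-Oa had 55 over the vismodegib, 10 over the Ki67-negative and 2 over the Ki67-positive libraries, and neither was tested.

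The class I genes that lie between the class II genes gave smaller or opposite differences. Tap1, a subunit of the peptide transporter, was at a log2 fold change of -0.22 over Ki67-positive nests (edgeR adjusted p = 0.546), and the proteasome subunit genes Psmb8 and Psmb9 were at 0.40 (adjusted p = 0.283) and 0.40 (adjusted p = 0.302). Tap2, the partner of Tap1, fell to 14.2 ± 4.26 CPM after vismodegib, against 26.8 ± 9.64 CPM in Ki67-positive nests (SD, n = 5 each), a change of -0.92 on the log2 scale (adjusted p = 0.0373). Over Ki67-negative nests Tap2 fell by 1.51 on the log2 scale (adjusted p = 0.00149) and Psmb9 rose by 0.78 (adjusted p = 0.0392). Outside this span, H2-K1 and H2-D1 rose by 0.85 (adjusted p = 0.00124) and 0.86 (adjusted p = 0.0292) over Ki67-positive nests. Over Ki67-negative nests they rose by 0.99 (adjusted p = 0.000296) and 0.91 (adjusted p = 0.018). H2-T23 (0.52, adjusted p = 0.404) and H2-T22 (0.23, adjusted p = 0.713) were not called over Ki67-positive nests.

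Among factors that recruit Ciita to the promoters, the 7 genes of the RFX, NF-Y and CREB subunits listed passed the filter and none rose. Over Ki67-positive nests 1 was lower (14.3% of the list, beside 13.4% of all genes tested), Rfx5, a DNA-binding RFX subunit, with 60.6, 58.0, 56.7, 57.4 and 67.0 CPM after vismodegib, against 71.9, 112, 75.4, 77.9 and 114 CPM in Ki67-positive libraries. All vismodegib libraries were below all Ki67-positive ones (log2 fold change -0.59, SE 0.164, edgeR adjusted p = 0.0125). Over Ki67-negative nests Rfx5 (-0.58, adjusted p = 0.0115) and the RFX subunit gene Rfxank (-0.55, adjusted p = 0.0462) were lower, 28.6% of the list, beside 16.5% of all genes. The list's median was -0.08 over Ki67-positive and 0.07 over Ki67-negative nests, beside the medians of all genes given above.

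Genes of endosomal antigen processing were higher in most cases. Of 10 that passed the filter, 7 rose and 0 fell over Ki67-positive nests, and 6 rose and 0 fell over Ki67-negative nests, with median log2 fold changes of 1.08 over Ki67-positive and 0.89 over Ki67-negative nests. The genes that rose are 70.0% of the list over Ki67-positive nests, beside 12.6% of all genes tested. Over Ki67-negative nests they are 60.0%, beside 15.4%. Cst3, which encodes the cathepsin inhibitor cystatin C, reached 483 ± 71.9 CPM after vismodegib, against 146 ± 26.2 CPM in Ki67-negative and 146 ± 23.6 CPM in Ki67-positive nests (SD, n = 5 each; log2 fold change over Ki67-positive 1.73, SE 0.154, edgeR adjusted p = 3.68e-07). Ifi30, which encodes the thiol reductase of endosomes, rose by 1.5 (adjusted p = 0.000305) and the cathepsin gene Ctsh by 1.10 (adjusted p = 0.00102) over Ki67-positive nests. Marchf1, whose ubiquitin ligase removes class II molecules from the surface, had 12.2 ± 2.42 CPM after vismodegib, against 5.40 ± 3.72 CPM in Ki67-negative and 2.94 ± 1.01 CPM in Ki67-positive nests, and rose by 2.05 (adjusted p = 0.00124) and, over Ki67-negative nests, by 1.17 (adjusted p = 0.0332).

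**Figure D4:**
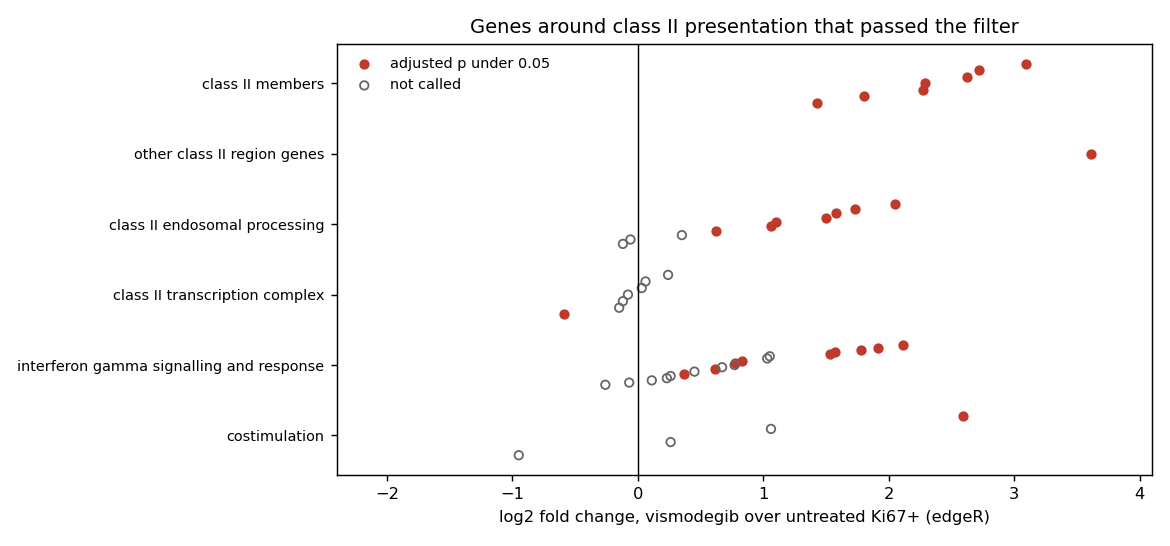
log2 fold change of vismodegib over Ki67-positive nests (x axis) for each gene of 6 lists that passed the filter; filled points have an edgeR adjusted p under 0.05. All 7 class II genes are filled and lie at 1.43 or above, and the only filled point below 0 is Rfx5 at -0.59.

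In the interferon gamma list, 9 of 19 tested genes rose and 0 fell over Ki67-positive nests, with a median log2 fold change of 0.77, and 3 rose and 0 fell over Ki67-negative nests, with a median of 0.27. These counts are 47.4% of the list over Ki67-positive nests, where 12.6% of all genes were higher, and 15.8% over Ki67-negative nests, close to the 15.4% of all genes. Ifngr1, which encodes the ligand-binding receptor chain, had 57.2, 73.5, 62.9, 91.0 and 53.4 CPM after vismodegib, against 12 to 38.5 CPM in Ki67-negative and 12.7 to 32.0 CPM in Ki67-positive libraries, with no overlap. Its log2 fold change was 1.57 over Ki67-positive (SE 0.289, edgeR adjusted p = 0.00053) and 1.34 over Ki67-negative nests (SE 0.287, adjusted p = 0.00171). Cxcl10, a chemokine of this response, rose by 2.11 over Ki67-positive (adjusted p = 0.00918) and 1.65 over Ki67-negative nests (adjusted p = 0.0282). For the GTPase gene Irgm2 the rise was 0.83 over Ki67-positive (adjusted p = 0.0136) and 0.67 over Ki67-negative nests (adjusted p = 0.0357). Igtp, another such GTPase gene, rose over Ki67-positive nests (1.53, adjusted p = 0.00294) and was at 0.55 over Ki67-negative nests (adjusted p = 0.226). Ifng itself reached at most 0.594 CPM in a vismodegib library, was at 0 in all Ki67-negative libraries and reached at most 0.238 CPM in a Ki67-positive library, too few counts for a test.

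Of 4 costimulation genes that passed the filter, 1 rose over Ki67-positive nests, and over Ki67-negative nests 1 rose and 1 fell. Among all genes tested, 12.6% were higher over Ki67-positive nests, and over Ki67-negative nests 15.4% were higher and 16.5% lower. With only 4 genes, 1 call in a direction cannot set the list apart from all genes. Cd86, a ligand of CD28 on antigen-presenting cells, rose, to 12 ± 3.15 CPM after vismodegib, against 3.0 ± 2.31 CPM in Ki67-negative and 2.0 ± 2.25 CPM in Ki67-positive libraries (SD, n = 5 each). Its log2 fold changes were 2.59 over Ki67-positive (edgeR adjusted p = 0.00252) and 1.99 over Ki67-negative nests (adjusted p = 0.011). Cd80, the other CD28 ligand, was at 0.26 over Ki67-positive nests (adjusted p = 0.703). Icosl, a ligand of another T cell costimulator, was lower over Ki67-negative nests (-1.53, adjusted p = 0.00438) and at -0.95 over Ki67-positive nests (adjusted p = 0.066).

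Some markers of Langerhans and dendritic cells, of T cells and of leukocytes in general rose in vismodegib nests, while 1 of 11 macrophage genes rose and no B cell gene passed the filter. Cd207, which encodes langerin and marks Langerhans cells, had 43.3, 39.4, 23.9, 33.5 and 33.8 CPM in vismodegib libraries 1 to 5, against 0 to 5.98 CPM in Ki67-negative and 0.119 to 6.27 CPM in Ki67-positive libraries. The groups did not overlap, with log2 fold changes of 4.18 over Ki67-positive (SE 0.786, edgeR adjusted p = 0.000975) and 3.69 over Ki67-negative nests (SE 0.756, adjusted p = 0.00171). Of 13 Langerhans and dendritic cell genes tested, 7 rose and 0 fell over Ki67-positive nests and 3 rose over Ki67-negative nests. These are 53.8% over Ki67-positive nests, beside 12.6% of all genes, and 23.1% over Ki67-negative nests, beside 15.4%. The list of 15 summed to 367 to 566 CPM after vismodegib, 282 to 469 CPM in Ki67-negative and 330 to 422 CPM in Ki67-positive libraries, a sum to which Epcam, also an epithelial gene, gives 182 CPM or more in each library. The chemokine receptor gene Ccr6 (3.31), the lectin gene Clec9a (3.26) and the integrin gene Itgax (3.25) were also higher over Ki67-positive nests (edgeR adjusted p = 0.0064, 0.00358 and 0.00734). Over Ki67-negative nests Clec9a was called (2.01, adjusted p = 0.0348), and Ccr6 (1.71, adjusted p = 0.0896) and Itgax (1.71, adjusted p = 0.0921) were not. Ccr6, Clec9a, Cd209a and Flt3 reached at most 1.07, 0.914, 1.01 and 1.21 CPM in Ki67-positive libraries. Their Ki67-negative medians were 0.404, 1.21, 0.15 and 0.645 CPM. These genes passed the filter through their vismodegib libraries, and could enter the test only as genes higher there than in most untreated libraries. Their adjusted p and their part in the list's counts therefore cannot decide the direction.

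**Figure D5:**
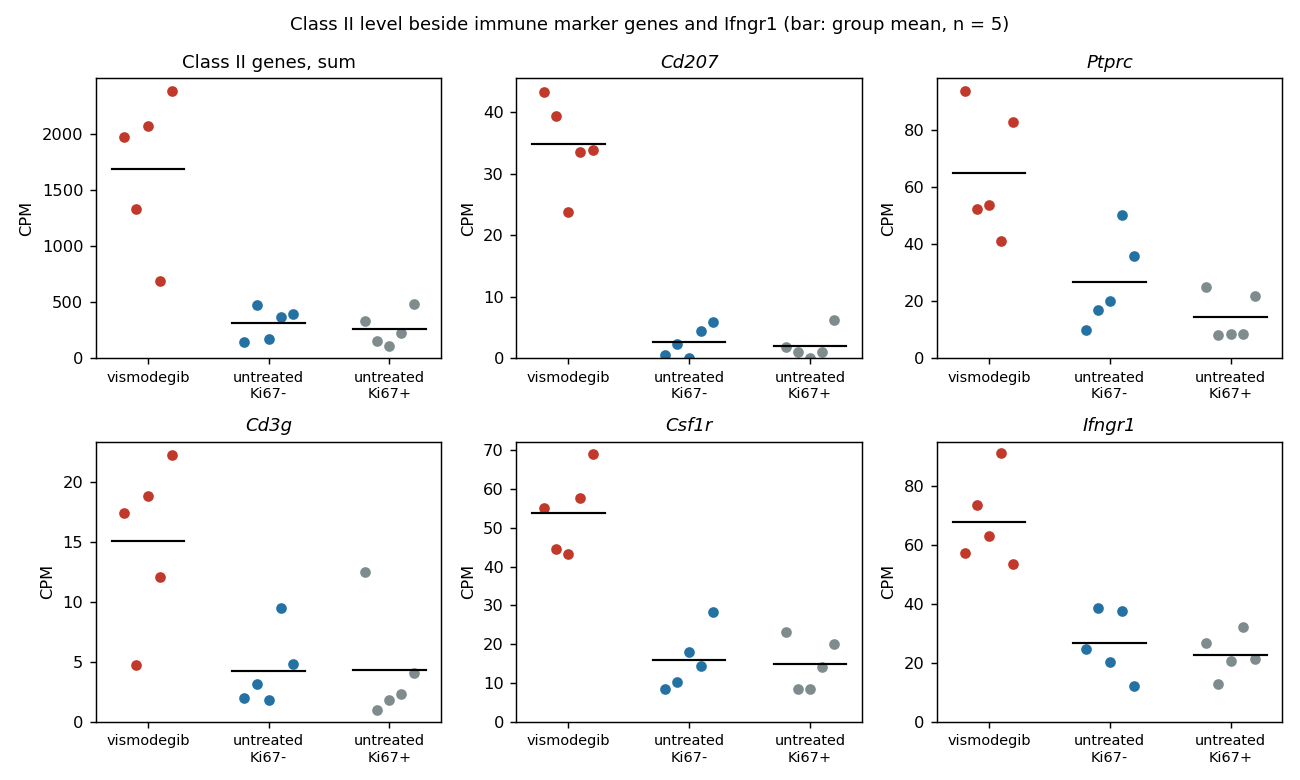
CPM by library of the summed class II genes and of Cd207 (Langerhans cells), Ptprc (all leukocytes), Cd3g (T cells), Csf1r (a macrophage gene, the 1 of 11 tested that rose) and Ifngr1, with vismodegib left of Ki67-negative and Ki67-positive libraries; bars are means of 5 libraries. The class II sum, Cd207, Csf1r and Ifngr1 do not overlap between vismodegib and untreated libraries, while Cd3g overlaps with both untreated groups and Ptprc with Ki67-negative libraries. Cd5 (T cells) and Cd52 (all leukocytes), which are not drawn, do not overlap between vismodegib and untreated libraries either.

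Of 7 general leukocyte genes 3 rose and 0 fell in each vismodegib comparison, 42.9% of the list. Of all genes tested, 12.6% were higher over Ki67-positive and 15.4% over Ki67-negative nests. The leukocyte list summed to 161 to 324 CPM after vismodegib, 47.8 to 318 CPM in Ki67-negative and 30.9 to 160 CPM in Ki67-positive libraries. Cd52, with the smallest adjusted p of the list, had at least 15.7 CPM after vismodegib. It reached at most 9.91 CPM in Ki67-negative and 7.83 CPM in Ki67-positive libraries. It rose by 2.73 over Ki67-positive (edgeR adjusted p = 0.000145) and 2.35 over Ki67-negative nests (adjusted p = 0.000425). Ptprc, which encodes CD45, had 93.9, 52.5, 53.9, 41.1 and 82.9 CPM after vismodegib, against 10.003 to 50.4 CPM in Ki67-negative and 8.04 to 24.9 CPM in Ki67-positive libraries, and rose by 2.19 over Ki67-positive (edgeR adjusted p = 0.00147) and 1.28 over Ki67-negative nests (adjusted p = 0.0299). Of 6 T cell genes tested, 5 rose and 0 fell over Ki67-positive and 3 rose over Ki67-negative nests, and the list summed to 37.1 to 109 CPM in vismodegib, 8.55 to 49.8 CPM in Ki67-negative and 14 to 34.4 CPM in Ki67-positive libraries. Cd5 had at least 11.1 CPM after vismodegib, and at most 4.98 CPM in Ki67-negative and 6.76 CPM in Ki67-positive libraries. It rose by 1.40 over Ki67-positive (edgeR adjusted p = 0.00546) and 2.15 over Ki67-negative nests (adjusted p = 0.000182). Of 11 macrophage and monocyte genes tested, Csf1r alone rose (1.87 over Ki67-positive, edgeR adjusted p = 0.000362, and 1.76 over Ki67-negative nests, adjusted p = 0.000536) and Cd14 was called lower over Ki67-negative nests (-3.32, edgeR adjusted p = 0.0452), where 1 library held 162 CPM and the medians were 2.93 CPM after vismodegib and 2.99 CPM in Ki67-negative nests. The list's median log2 fold change was 0.46 over Ki67-positive and -0.42 over Ki67-negative nests, and its sums overlapped, at 102 to 363 CPM in vismodegib, 105 to 474 CPM in Ki67-negative and 53.8 to 217 CPM in Ki67-positive libraries. Csf1r and Cd14 are each 9.09% of the list, below the shares of all genes higher and below the 16.5% lower over Ki67-negative nests.

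None of the 6 B cell genes passed the filter: their sum was at most 3.27 CPM after vismodegib, 3.84 CPM in Ki67-negative and 2.09 CPM in Ki67-positive libraries, and the B cell gene Ms4a1 had 0 counts in all 15. Of 6 fibroblast genes 0 rose and 1 fell in each comparison (16.7%), and of 5 endothelial genes 0 were called. Of all genes tested, 13.4% were lower over Ki67-positive and 16.5% over Ki67-negative nests, so the fibroblast share is near that of all genes. Of 5 melanocyte genes 0 rose, and 4 fell over Ki67-positive (80.0%) and 3 over Ki67-negative nests (60.0%). Of 8 keratinocyte genes 5 rose in each comparison (62.5%, beside 12.6% of all genes over Ki67-positive and 15.4% over Ki67-negative nests). Krt17 alone fell, over Ki67-positive nests (12.5%, beside 13.4% of all genes). Krt10, a keratin of differentiating layers, rose by 3.62 over Ki67-positive (edgeR adjusted p = 1.46e-06) and 4.0 over Ki67-negative nests (adjusted p = 5.76e-07). The basal keratin gene Krt14 rose by 1.40 over Ki67-positive (edgeR adjusted p = 4.09e-05) and 1.73 over Ki67-negative nests (adjusted p = 4.51e-06). The part of Langerhans cells, T cells or other leukocytes in the class II difference was not tested. In vismodegib library 4, where the class II sum was the lowest of its group, Cd207 was 33.5 CPM, within the range of the other vismodegib libraries. Ptprc, at 41.1 CPM, and the T cell gene Cd3e, at 5.23 CPM, were the lowest of the group there. These are values of 1 library, which also had low H2 genes, and their bearing on the class II level was not tested.

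Within groups, the genes whose log2 CPM was most like the mean of the 7 members, of 12844 genes ranked over 15 libraries, were Mir5107 (r = 0.92), Tysnd1 (0.87), Coro1a (0.87), Wdr91 (0.86) and Hrob (0.85), followed by Akna (0.85), Crcp (0.84), Dock4 (0.83), Il2rg (0.83) and Uck1 (0.82). Mir5107 lies in Cd74. Coro1a, which encodes an actin-binding protein of leukocytes, had 23.3, 13.8, 23.5, 7.29 and 23.8 CPM after vismodegib, with library 4 the lowest, as for the members other than H2-Aa, and rose by 1.66 over Ki67-positive nests (edgeR adjusted p = 0.0253). Il2rg, the shared receptor chain of several interleukins, was at 0.85 (adjusted p = 0.288). Of the 10 genes, Mir5107 (2.77, adjusted p = 0.00133) and Coro1a were called over Ki67-positive nests and the other 8 were not. The ranking depended on vismodegib library 4. Without it, 2 of these genes, Mir5107 (r = 0.89) and Coro1a (0.88), stayed among the 10 most alike, Uck1 was at 0.63 and Hrob at 0.71, and the genes that entered were Apbb1ip (0.91), Gm1966 (0.91), Irf8 (0.89), Cd52 (0.89), Lcp2 (0.89), Ms4a6c (0.89), Atp8b4 (0.88) and Ccr2 (0.87), over 14 libraries.

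Among the members, likeness within groups differed by pair. Cd74 went with H2-Ab1 (r = 0.91 over 15 libraries, 0.92 over 14 without vismodegib library 4), with H2-Aa (0.89 over 15, 0.96 over 14) and with Ciita (0.72 over 15, 0.64 over 14). H2-Eb1 with H2-Aa was at r = 0.32 over 15 libraries and 0.55 without library 4. H2-DMa was at 0.15 with H2-Aa, 0.1 with H2-Ab1 and 0.46 with H2-Eb1, and without library 4 at 0.09, -0.04 and 0.27 in the same order. H2-DMb1 was at 0.17 with H2-Aa, 0.27 with H2-Ab1 and 0.35 with H2-Eb1, and without library 4 at 0.12, 0.17 and 0.0. The chains of H2-DM went against each other, at r = -0.48 over 15 libraries and -0.74 over 14. These values describe libraries that share depth and scaling, and carry no test.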

How the data were processed

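Polyadenylated RNA of 15 libraries of captured tumour nests was analysed. Reads were aligned with GSNAP to GRCm38, per the submitters' processing notes, and no source used here states the aligner's version, the annotation or whether strand was used. The deposited counts are reads uniquely aligned to a gene model, per the file headers, and the deposited RPKM were adjusted with size factors by the authors. Of 36528 entries, 31049 (85.0%) matched a symbol in RefSeq (GRCm38.p6), which also gave coordinates, and no total or blank entry was present.

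Counts were scaled by TMM (factors 0.937 to 1.05) and filtered with filterByExpr (minimum count 10, minimum total 15), which left 17282 genes. The main test was the two-sided quasi-likelihood F test of edgeR 4.0.16 (R 4.3.3) on all 15 libraries in 1 fit without covariates (12 residual degrees of freedom, common biological coefficient of variation 0.348), with Benjamini-Hochberg adjustment over all genes tested and a threshold of 0.05. The procedure was tested on simulated data with the same spread for every gene and no outlying library, unlike the data here. CPM are counts over the TMM-scaled library size, and RPKM served only to compare genes. Likeness is Pearson's r of log2 CPM (prior count 2) after subtracting group means, among genes with an average log2 CPM of at least 2. Counting error alone sets a limit at low counts, such as the 29 of H2-Eb1 in vismodegib library 4. In 30 pairs of libraries within groups, chi-square over its degrees of freedom was 13.2 to 43.3, so no library duplicated another of its group.

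Libraries were numbered in accession order within a group, as the labels give no replicate number, animal or date. The numbers pair nothing, and p-values measure only the spread between these libraries, part of which may be technical. The members and the lists of 131 entries, 127 of them matched, were chosen with earlier results of these data known. Named in the text are the 7 members, up to 4 genes of each other list with the smallest adjusted p over Ki67-positive nests, the neighbours on chromosome 17, the 10 most alike genes, and Ptch1, Gli1 and Mki67. The B cell gene Ms4a1, Ifng, Cd80, Icosl, Rfxank, Cd14, Krt17, Epcam, Cd209a, Flt3, Nkg7 and the H2 genes outside these were added after their values were seen. Alternatives were DESeq2 1.42.0, limma 3.58.1 (voom), DESeq2's size factors, no filter, a minimum count of 50, 2 groups per fit, a term or a subset by Xist against Ddx3y, and leaving out each library. Levels and likeness without vismodegib library 4 were added after seeing the data.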

Additional observations from a re-analysis of the deposited data

Results flagged for a closer look

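Of 39 sets of 5 libraries examined for a library far from the rest of its group (the gap to the nearest library over the group's range above 0.71), 2 held such a library. Chance gives this in about 1 of 20 sets, and the sets share libraries and genes. H2-Eb1 per H2-Aa count was 0.0139 in vismodegib library 4, and 0.404 to 0.554 in the other vismodegib libraries. H2-Ab1 per H2-Aa count was 1.91 in Ki67-positive library 3, which had the lowest H2-Aa level of all (97 counts), and 0.984 to 1.25 in the other Ki67-positive libraries.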

How the results depend on the processing

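Over Ki67-positive nests the number of members called was 5 to 7 under the 8 other settings and 7 without any 1 library. Over Ki67-negative nests it was 6 to 7 under 7 settings, 4 in the 10 libraries with Ddx3y above Xist, where 2 vismodegib libraries remain, and 7 without any 1 library. Of 322 member fold changes recomputed for these comparisons, 315 kept their direction and call, 7 kept their direction and lost the call, and 0 reversed (range 1.04 to 3.61). The lost calls were H2-Eb1 by voom, given in the report, and, in the libraries with Ddx3y above Xist, H2-Eb1 (2.16, edgeR adjusted p = 0.187, over Ki67-positive and 2.04, 0.202, over Ki67-negative nests), H2-DMb1 (1.27, 0.0623, and 1.04, 0.117) and Cd74 over Ki67-negative nests (2.33, 0.0877). H2-Eb1 had adjusted p from 3.97e-06 to 0.326 over Ki67-positive nests across all settings. Between the untreated groups 0 members were called under every setting run, and signs of values near 0 turned: H2-Eb1 with no filter (-0.00297), H2-DMa with DESeq2's size factors (0.00728), by DESeq2 (0.0062) and with 2 groups in the fit (0.00899), H2-DMb1 in the libraries with Ddx3y above Xist (0.23) and Ciita by voom (0.0851). Without 1 library, these ran from -0.16 to 0.25 (H2-Eb1), -0.21 to 0.14 (H2-DMa), -0.32 to 0.17 (H2-DMb1) and -0.28 to 0.38 (Ciita). The order of members by level per length was the same from RPKM and from CPM divided by length. The causes of these changes were not tested. No paired analysis was possible because the labels give the libraries no replicate numbers.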
